A study of Mus musculus with 28 samples.

Results

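The expression of 10 circadian clock genes was examined in mouse tail tendon: *Clock*, *Per1*, *Per2*, *Per3*, *Cry1*, *Cry2*, *Nr1d1*, *Nr1d2*, *Dbp* and *Tef*. They were chosen by name as genes of the clock, with earlier results of these data known, and all 10 were found among the 25719 genes of the files. Bulk RNA-sequencing covered 28 mice with 1 library per mouse, to ask how gene expression in tendon changes as fibrosis develops in Fosl-2(Tg) mice. These mice, on a C57BL/6 background by the labels and C57Bl6/J by the study's reporting summary, carry an added murine copy of *Fosl2*, a member of the AP-1 family, followed by eGFP and inserted at random in the genome. The transgene is driven by the H2Kb promoter, which belongs to an MHC class I gene, so that it is not restricted to tendon cells, and nontransgenic controls (WT) had no such insert. The early cohort, 6 to 8 weeks old, held 7 WT and 8 Fosl-2(Tg) mice, all male. The established cohort, older than 14 weeks, held 6 WT and 7 Fosl-2(Tg) mice, of which 11 were female and 1 of each genotype was male. Stage, age and sex therefore cannot be told apart between the cohorts. The hour of tissue collection was not given in the sources used here.

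The mammalian clock is a loop of transcription and repression that runs in nearly every cell. CLOCK, or its relative NPAS2, pairs with BMAL1 and switches on the *Per* and *Cry* genes through E-box sequences, and PER and CRY proteins then switch their own genes off. REV-ERB proteins, encoded by *Nr1d1* and *Nr1d2*, repress *Bmal1* in a second loop, while DBP and TEF activate genes through D-box sequences against the repressor NFIL3. Tendon fibroblasts are known to hold such a clock, and the RNA of most of its genes rises and falls over the day.

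Exact matches to the sequences that clock proteins bind were looked for in the 250 bases before the start of the canonical transcript of each gene (GRCm39, GENCODE release M39). These sequences are shown because they are the sites by which clock genes are known to regulate each other. The E-box CACGTG was found in 3 of the 10 clock genes, against 6.3% of the 21571 protein-coding promoters scanned. The D-box TTATGTAA, read on both strands as TTATGTAA or TTACATAA, was found in 2 of the 10 against 0.839% of all promoters. The core TAGGTCA of the element bound by REV-ERB and ROR proteins, or its complement TGACCTA, was found in 1 of the 10 and in 2.17% of promoters, and the cyclic AMP response element TGACGTCA in 0 of the 10 and in 1.69%. None of the 4 motifs contains another. Matching stretches are given 5′ to 3′ on the strand of the gene, with the motif in capitals.
*Per1*, E-box, chr11:68989235-68989262, plus strand: ccccttaacgaCACGTGggccctcaatt
*Cry1*, E-box, chr10:85020962-85020989, minus strand: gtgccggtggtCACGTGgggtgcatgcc
*Tef*, E-box, chr15:81695466-81695493, plus strand: acctggcccagCACGTGtctacatcgtt
*Per2*, D-box, chr1:91387153-91387182, minus strand: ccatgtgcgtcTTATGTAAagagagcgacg
*Per3*, first D-box, chr4:151129309-151129338, minus strand: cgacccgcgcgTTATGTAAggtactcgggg
*Per3*, second D-box, chr4:151129262-151129291, minus strand: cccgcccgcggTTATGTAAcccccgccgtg
*Dbp*, REV-ERB and ROR core, chr7:45354312-45354340, plus strand: ttggccaaataTAGGTCAgtgtcccgcct

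The E-box began 22 bases before the transcript start in *Per1*, 29 bases before it in *Cry1* and 138 bases before it in *Tef*. The D-box of *Per2* began 125 bases before the start, and the pair in *Per3* lay 187 and 140 bases before it. In the annotation, the *Cry1* stretch is also exonic in another *Cry1* transcript, and the *Dbp* stretch lies in an exon of its neighbour *Car11*, the first *Per3* stretch in an exon of *Gm69444* and the *Tef* stretch in an exon of *Gm17597*. The genes themselves lie, in GRCm39, at chr11:68986035-69002300 (*Per1*), chr7:45354512-45359627 (*Dbp*) and chr11:98658752-98666188 (*Nr1d1*), to name the 3 described most closely. A match is a description of letters in this window, and *Clock*, *Cry2*, *Nr1d1* and *Nr1d2* had none of the 4 motifs there.

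Reads counted on genes summed to 9645598 to 66894396 per library, and levels are given as CPM, that is, counts relative to library size, with TMM scaling over all 28 libraries so that the cohorts can be set side by side. *Fosl2*, whose count includes endogenous and transgene reads alike, lay between 78.0 and 169.3 CPM in established WT and between 120.9 and 160.0 CPM in established Fosl-2(Tg) mice, and its overlap between genotypes means that it did not check the labels. All 10 tendon fibroblast markers listed, among them *Tnmd*, *Scx* and *Col1a1*, were present, but their summed level was 7221 to 81120 CPM in established Fosl-2(Tg) mice against 101500 to 192200 CPM in established WT mice. Skeletal muscle markers summed to 49.9 to 19900 CPM across the mice, so that muscle RNA varied widely between libraries. Keratins *Krt5*, *Krt14*, *Krt1* and *Krt15* and all 5 adipocyte markers were below 1 CPM in every mouse. *Krt10* and *Dsp* were not, and the 7 keratinocyte markers summed to 8.06 to 32.5 CPM across the mice. In whole tendon, fewer cells of a type and less RNA per cell cannot be told apart.

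All 10 clock genes were expressed in every mouse. Per kilobase of canonical transcript, *Nr1d1* had the highest mean level in each group, 135 ± 47.1 CPM per kb in early WT (SD, n = 7) and 102 ± 18.8 CPM per kb in established Fosl-2(Tg) mice (SD, n = 7). *Dbp* ranked second in both early groups and in established WT, at 60.5 ± 16.9 CPM per kb (SD, n = 6) in the latter. In established Fosl-2(Tg) mice *Dbp* ranked in place 4 at 34.1 ± 11.1 CPM per kb (SD, n = 7), behind *Tef* and *Cry2*. *Tef* and *Cry2* were neighbours whose order did not hold across mice there, *Tef* being higher in only 2 of the 7. *Cry1* was lowest in every group, from 5.21 ± 1.62 CPM per kb in early WT (SD, n = 7) to 7.53 ± 2.89 CPM per kb in established Fosl-2(Tg) mice (SD, n = 7), with *Per2* next above it. *Clock* lay above *Per2*, and *Per1*, *Per3* and *Nr1d2* between *Clock* and *Cry2* exchanged places between groups. All annotated exons together are longer than the canonical transcript, and unevenly so. They span 17251 against 9911 bases for *Clock*, 3470 against 1837 for *Dbp* and 6566 against 5836 for *Per2*. The order, as that of *Clock* and *Per2*, therefore depends in part on the length used.

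**Figure D1:**
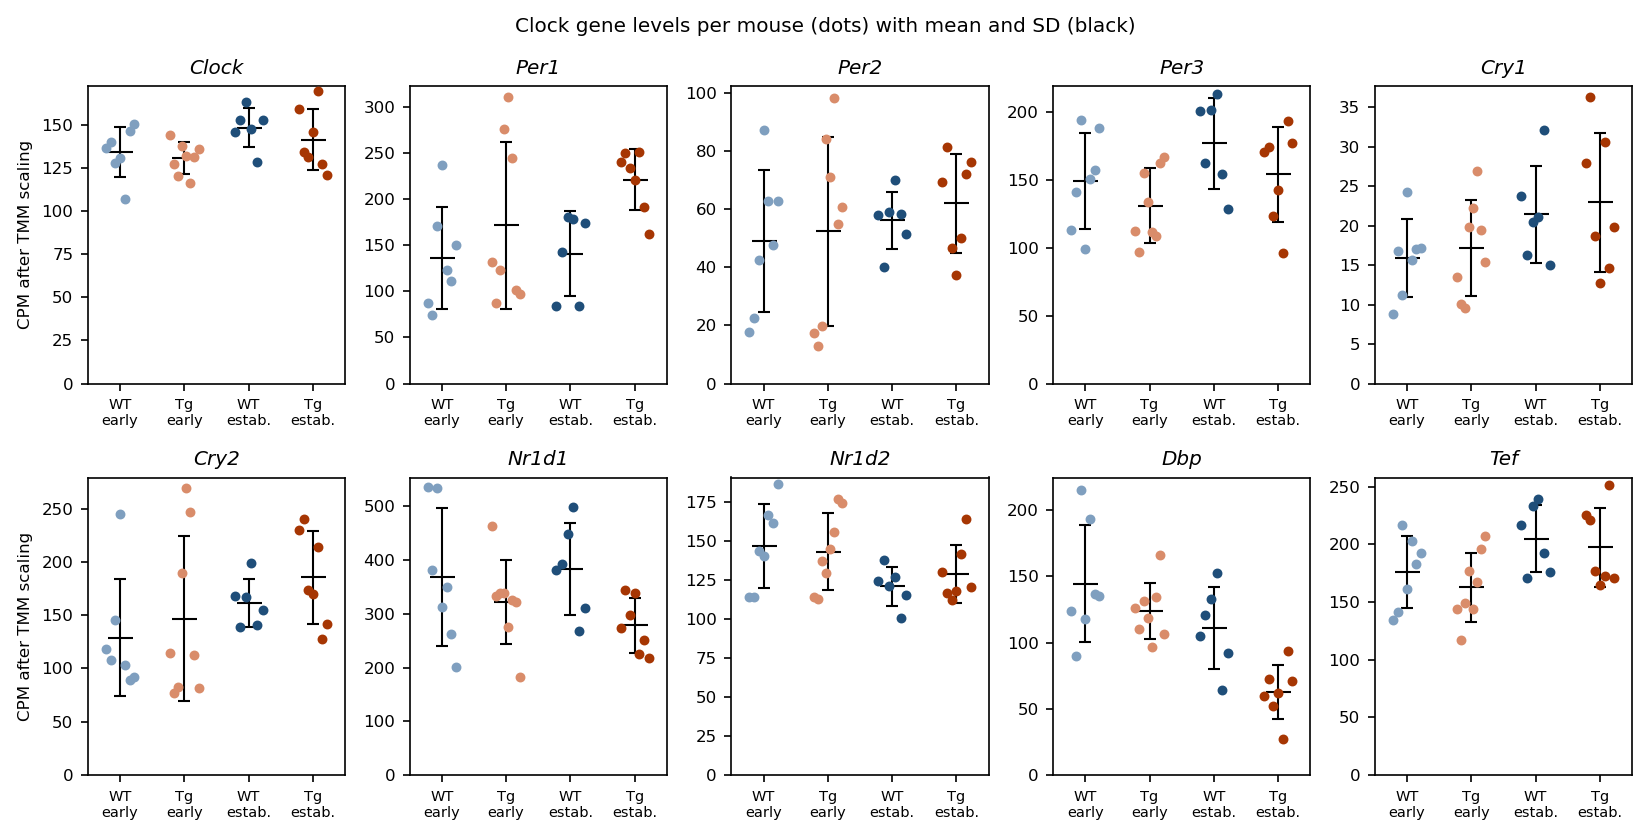
Level of each clock gene in CPM after TMM scaling (y axes from 0) in the 4 groups, with 1 dot per mouse and the mean and SD in black. Established Fosl-2(Tg) mice sit low for *Dbp* (27.5 to 94.0 CPM) and high for *Per1* (161.6 to 250.9 CPM), and *Per2* spans 12.9 to 98.2 CPM in early Fosl-2(Tg) mice.

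The first comparison asks whether clock genes differ between genotypes before fibrosis is established. In the early cohort, no clock gene passed the threshold, an FDR of at most 0.05 in edgeR's quasi-likelihood test, where 0.0396% of the 15138 genes tested did. None of the 10 had an unadjusted p under 0.05, and DESeq2 and limma voom called 0 of the 10 as well. Their median log2 fold change was -0.04, against -0.01 over all genes tested, with 4 genes above 0 and 6 below. With the replicate number as a block, 11 genes passed in place of 6, again with none of the clock genes.

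*Per1* had the highest early fold change, a log2 fold change of 0.33 (standard error, SE, 0.31, edgeR FDR = 0.91). Its levels ran from 74.2 through a median of 122.8 to 236.5 CPM in WT and from 86.8 through 127.2 to 310.5 CPM in Fosl-2(Tg) mice. The genotypes thus overlapped over most of their range, at nearly the same median. *Dbp* had the lowest, a log2 fold change of -0.23 (SE 0.16, edgeR FDR = 0.869), from 89.5 to 215.3 CPM in WT and from 96.8 to 165.8 CPM in Fosl-2(Tg) mice. The standard errors differed among the members, from 0.08 for *Clock* to 0.43 for *Per2*, so that a difference in *Per2* would have had to be far larger to be detected. For *Per2*, *Cry1*, *Cry2* and *Nr1d2*, the sign of the early difference changed with the processing.

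In the established cohort, the differences of *Per1* (log2 fold change 0.66), *Dbp* (-0.82) and *Nr1d1* (-0.45) stood apart from those of the other members, but their call depended on the tool. In edgeR's test, 0 of the 10 clock genes passed, where 6.51% of 15862 genes did, and these 3 had an unadjusted p under 0.05. DESeq2 and limma voom with quality weights each called 3 of the 10, and the same 3, *Per1*, *Nr1d1* and *Dbp*, but DESeq2 called 13.5% and limma voom 12.5% of all genes. The median log2 fold change of the 10 was 0.025 against 0.005 over all genes, with 5 members above 0 and 5 below.

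*Dbp*, the D-box activator whose RNA cycles strongly in many tissues, had the largest log2 fold change of the 10 in size. Its levels were 64.5, 92.4, 104.7, 120.7, 132.7 and 152.3 CPM in the 6 established WT mice, and 27.5, 52.5, 59.8, 61.7, 70.99, 72.4 and 94.0 CPM in the 7 Fosl-2(Tg) mice. All 7 Fosl-2(Tg) mice lay below the WT mean and 4 lay below the lowest WT mouse, so that the groups overlapped between 64.5 and 94.0 CPM. The log2 fold change was -0.82 (SE 0.24, unadjusted p = 0.00396, edgeR FDR = 0.0546). *Dbp* passed in 7 of 11 other settings, with an FDR of 0.00694 with sex as a covariate, 0.0213 in females only, 0.0293 with the replicate block and 0.0102 by DESeq2. It passed in 3 of 13 fits with 1 mouse left out, with an FDR from 0.0333 to 0.111 and a log2 fold change from -0.94 to -0.70. The 3 were those without WT replicate 5 and without Fosl-2(Tg) replicate 5 or 6. Replicate 5 was the male of each genotype and had its lowest *Dbp* level, 64.5 CPM in WT and 27.5 CPM in Fosl-2(Tg). Among the females, *Dbp* was 92.4 to 152.3 CPM in WT and 52.5 to 94.0 CPM in Fosl-2(Tg) mice. The tendon fibroblast markers, as a sum over 10 genes, also differed without overlap between the genotypes. They were at 7221 to 81120 CPM in all established Fosl-2(Tg) mice and 101500 to 192200 CPM in all established WT mice. How many of all genes lacked overlap between these groups was not computed. With group means removed, *Dbp* and the score of these markers had r = 0.587 (adjusted permutation p = 0.105, rho = 0.392, adjusted p = 0.266), and 0.14 without 2 mice.

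*Per1*, the period gene that also responds acutely to cyclic AMP and glucocorticoid signals, had a log2 fold change of the other sign. WT levels were 83.8, 84.0, 142.8, 174.0, 178.3 and 179.9 CPM, and Fosl-2(Tg) levels 161.6, 191.5, 220.7, 233.4, 239.8, 249.5 and 250.9 CPM. A single Fosl-2(Tg) mouse fell within the WT range and the other 6 exceeded every WT mouse. The log2 fold change was 0.66 (SE 0.20, unadjusted p = 0.00486, edgeR FDR = 0.0609). It passed in 3 of 11 other settings, where the log2 fold change ran from 0.51 to 0.79, and in 1 of 13 fits with 1 mouse left out, that without Fosl-2(Tg) replicate 7 (edgeR FDR = 0.0461). Beside it stood the acute response list, 12 glucocorticoid and immediate early genes such as *Fkbp5*, *Sgk1* and *Fos*. The sum of the 12 was 532.4 to 778.2 CPM in established WT and 761.2 to 1568 CPM in established Fosl-2(Tg) mice. Their median was 0.56 on the log2 scale against 0.005 over all genes, with 10 above 0 and 2 below. *Fosb* (-0.17) and *Nr4a1* (-0.41) lay below 0, and *Fos* had 0.08 (SE 0.37, edgeR FDR = 0.904). Of the 12, 2 were called by edgeR, beside 6.51% of all genes. The called genes were *Fkbp5* (1.38, edgeR FDR = 0.0268) and *Zbtb16* (1.05, edgeR FDR = 0.0349). Their part in the *Per1* difference was not tested.

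*Nr1d1*, which encodes the repressor REV-ERB alpha, was 267.6 to 499.6 CPM with a median of 387.1 in established WT and 217.6 to 345.0 CPM with a median of 273.7 in Fosl-2(Tg) mice. All 7 Fosl-2(Tg) mice lay below the WT mean, 3 of them below every WT mouse. The log2 fold change was -0.45 (SE 0.16, unadjusted p = 0.0112, edgeR FDR = 0.0889), and *Nr1d1* passed in 4 of 11 other settings and in 0 of 13 fits with 1 mouse left out. *Nr1d1* also ran opposite to the skeletal muscle score over the 28 mice (r = -0.526, adjusted p = 0.102, and rho = -0.667, adjusted p = 0.0216, by permutation, with r = -0.444 without 2 mice), and with that score as a covariate its edgeR FDR was 0.0068. Its paralog *Nr1d2* overlapped between genotypes, 100.5 to 137.4 CPM in WT and 111.9 to 163.6 CPM in Fosl-2(Tg) mice (log2 fold change 0.10, SE 0.10, edgeR FDR = 0.555).

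Overlapping genes limit what these values measure. The library kit named in the labels does not mark strand in its standard form and the strand setting of the counting was not stated, so that reads from genes on opposite strands cannot be told apart where exons overlap. The thyroid hormone receptor gene *Thra* covers 1694 of the 3242 exon bases of *Nr1d1*, and *Sphk2* covers 539 of the 3470 exon bases of *Dbp*. In established tendons, *Thra* had a log2 fold change of -0.49 (SE 0.11, edgeR FDR = 0.0264), about the size of that of *Nr1d1*. *Sphk2* had -0.49 (SE 0.19, edgeR FDR = 0.125), smaller than that of *Dbp*. With group means removed, *Thra* correlated with *Nr1d1* at r = 0.91 and *Sphk2* with *Dbp* at r = 0.943 over the 28 mice, values that shared reads alone could raise. *Tmem165*, which covers 2047 of the 17251 exon bases of *Clock*, correlated with it at r = -0.552.

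The remaining members did not separate the genotypes in the established cohort. *Clock*, the activator, was 128.7 to 163.1 CPM in WT and 121.1 to 169.4 CPM in Fosl-2(Tg) mice, a log2 fold change of -0.06 with a standard error of 0.09. The other period and cryptochrome genes, which encode the repressors, had log2 fold changes of 0.15 for *Per2*, -0.19 for *Per3*, 0.10 for *Cry1* and 0.21 for *Cry2*, with standard errors from 0.15 to 0.25. Established levels overlapped for each, for example 40.1 to 69.9 CPM in WT and 37.5 to 81.6 CPM in Fosl-2(Tg) mice for *Per2*, 128.4 to 213.2 and 96.3 to 193.5 CPM for *Per3*, and 138.5 to 199.1 and 127.6 to 240.4 CPM for *Cry2*. *Tef*, the partner of *Dbp* in D-box activation, was 171.2 to 239.6 CPM in WT and 165.0 to 251.3 CPM in Fosl-2(Tg) mice. Its log2 fold change of -0.05 (SE 0.12) stood beside the -0.82 of *Dbp*, although both genes deviated together among mice of a group (r past the adjusted threshold).

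**Figure D2:**
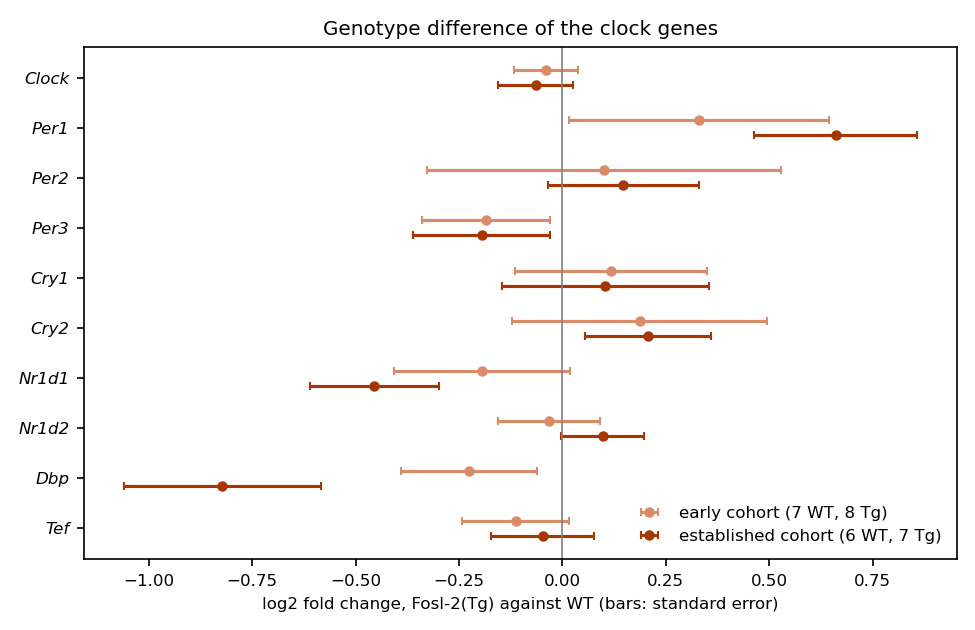
Log2 fold change of each clock gene, Fosl-2(Tg) against WT (x axis), in the early and the established cohort, with the standard error of edgeR's fit as bars. The established values of *Dbp* (-0.82), *Nr1d1* (-0.45) and *Per1* (0.66) lie farthest from 0, and none of the 20 values passed the FDR threshold.

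An interaction term, fitted over the 4 groups at once, tested whether the genotype difference was the same at both stages. None of the 10 clock genes passed in edgeR's test, where 7.43% of 16082 genes did, and none had an unadjusted p under 0.05. DESeq2 and limma voom also called 0 of the 10. *Dbp* came closest, with a log2 difference of -0.60 between the cohorts' genotype effects (SE 0.30, unadjusted p = 0.0524, edgeR FDR = 0.203). A genotype difference particular to established tendon was therefore not shown for any of them.

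Between the cohorts, *Dbp* fell within Fosl-2(Tg) mice, from 96.8 to 165.8 CPM in the early to 27.5 to 94.0 CPM in the established mice, with no overlap. How many of all genes had no overlap there was not computed. The summed tendon fibroblast markers also fell without overlap, from 252700 to 618300 CPM in the early to 7221 to 81120 CPM in the established Fosl-2(Tg) mice. Whether this shift had a part in the fall of *Dbp* was not tested. The log2 fold change of *Dbp* was -0.98 (SE 0.21, edgeR FDR = 0.000346), and *Dbp* was past the threshold in all 9 other settings and in all 28 fits with 1 mouse left out. It was the 1 clock gene of 10 called between the stages of Fosl-2(Tg) mice, where 47.8% of all genes were called, so that the members' count lay far under the background. *Tef* had a log2 fold change of 0.28 (SE 0.13, edgeR FDR = 0.0684), which passed only with the replicate block or without early Fosl-2(Tg) replicate 7 or 8. Beside *Dbp*, edgeR also called *Cry1* and *Nr1d1* with the muscle score as a covariate (43.3% of all genes) and *Nr1d1* and *Nr1d2* with library number (53.5% of all genes), the difference of *Nr1d1* being negative with the former and positive with the latter. In WT mice, 0 of the 10 passed between stages by edgeR, DESeq2 or limma voom, against 5.81% of all genes, and *Dbp* had a log2 fold change of -0.38 (SE 0.22, edgeR FDR = 0.312). *Nr1d2* alone had an unadjusted p under 0.05 there (log2 fold change -0.28, SE 0.12, edgeR FDR = 0.181). With library number as a covariate, which nearly coincides with stage, *Nr1d2* (-0.83, edgeR FDR = 0.000306) and *Nr1d1* were called in WT mice, as were 34.8% of all genes.

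Of 17 other clock regulators, the D-box repressor *Nfil3* and the E-box repressor *Bhlhe41* were called in established tendons, beside 6.51% of all genes. *Nfil3* was 3.90 to 11.1 CPM with a median of 7.05 in WT and 15.1 to 58.3 CPM with a median of 28.2 in Fosl-2(Tg) mice, with no overlap (log2 fold change 2.14, SE 0.33, edgeR FDR = 0.00796). *Bhlhe41* was 122.5 to 203.1 CPM with a median of 154.2 in WT and 37.9 to 92.1 CPM with a median of 74.4 in Fosl-2(Tg) mice, again with no overlap (log2 fold change -1.06, SE 0.18, edgeR FDR = 0.00997). The share of all genes without overlap between these groups was not computed. The *Bhlhe41* difference also varied with cohort, by an interaction of -0.96 (SE 0.23, edgeR FDR = 0.0136). So did that of *Btrc*, a ubiquitin ligase subunit that marks PER proteins for degradation (-0.39, SE 0.12, edgeR FDR = 0.0447). The interaction was called for 7.43% of all genes. The established median of the 17 was -0.03 against 0.005 over all genes. *Bmal1* (-0.06, SE 0.19), *Npas2* (-0.18, SE 0.23), *Hlf* (-0.40, SE 0.19), *Ciart* (-0.25, SE 0.18) and *Bhlhe40* (-0.14, SE 0.21) were not called, and their genotypes overlapped. None of the 17 passed in the early cohort by edgeR, with 0 at an unadjusted p under 0.05.

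Within Fosl-2(Tg) mice, 11 of these 17 were called between stages, 7 higher and 4 lower in the established mice, beside the 47.8% of all genes. The higher ones included *Nfil3* (1.43), *Rorb* (1.06), *Timeless* (0.70), *Fbxl21* (0.63) and *Csnk1e* (0.50), and the lower ones *Ciart* (-1.04), *Bhlhe41* (-0.90), *Rora* (-0.68) and *Btrc* (-0.31), all as log2 fold changes. Of 10 genes known as clock outputs in other tissues, 1 was called between genotypes, a share near the 6.51% of all genes. It was *Por*, which encodes cytochrome P450 reductase, at 24.4 to 42.9 CPM in established WT and 14.4 to 28.7 CPM in Fosl-2(Tg) mice (log2 fold change -0.59, SE 0.15, edgeR FDR = 0.0364). None of these 10 was called in the early cohort by edgeR, with 0 at an unadjusted p under 0.05.

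Most clock genes varied between mice of the same group more than the typical gene. The SD of log2 CPM between mice of a group, pooled over the 4 groups, was 0.79 for *Per2*, 0.56 for *Per1*, 0.51 for *Cry2* and 0.50 for *Cry1*. Among the 11416 genes with a mean of at least 5 CPM, whose median was 0.24, these stood at percentiles 96.9, 93.7, 92.1 and 91.7. *Dbp* (0.42), *Nr1d1* (0.39), *Per3* (0.33) and *Tef* (0.25) were also above the median, and *Nr1d2* (0.23, percentile 46.3) and *Clock* (0.14, percentile 12.2) below it. Thus 8 of 10 members lay above the median of all genes, and *Clock*, whose RNA is known to cycle weakly in most tissues, varied least. The ranking is a description without a test, and a difference in collection hour between mice could not be read from the labels.

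**Figure D3:**
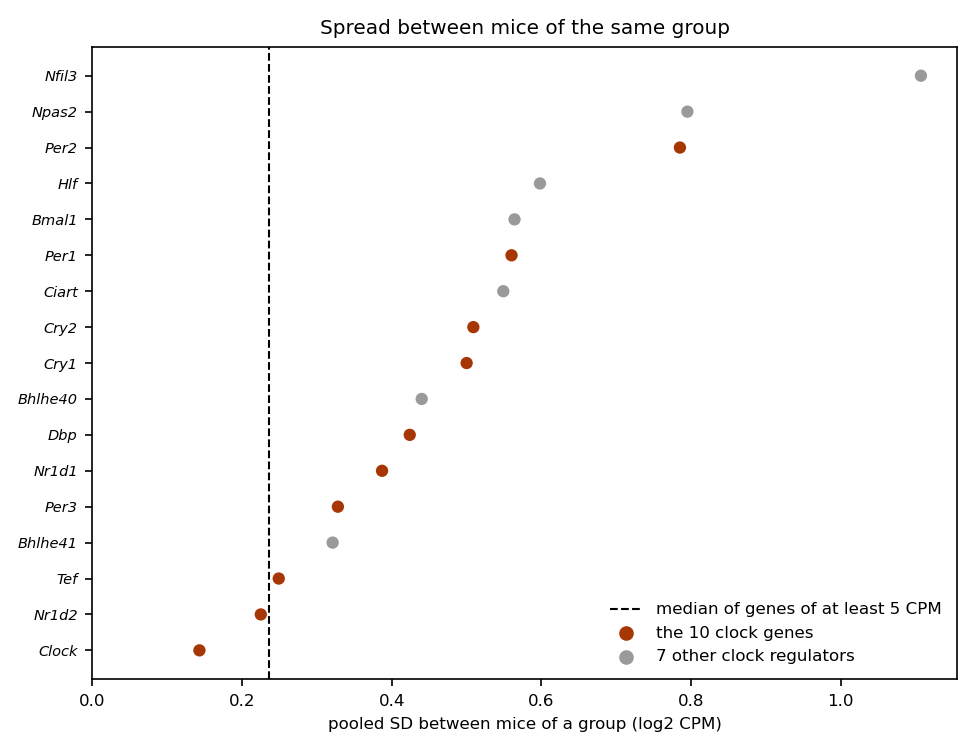
Pooled SD of log2 CPM between mice of a group (x axis) for the 10 clock genes (red) and 7 other clock regulators (grey), with the median of 11416 genes as a dashed line. *Per2* (0.79) is widest among the 10 and *Clock* (0.14) narrowest, while *Nfil3* (1.11) and *Npas2* (0.80) are wider still.

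For some genes the mice of the early cohort lay much farther apart than those of the established cohort. *Per2* covered a 7.61-fold range in early Fosl-2(Tg) mice and a 4.97-fold range in early WT mice, against 2.18-fold and 1.74-fold in the established groups. *Bmal1*, the partner of *Clock*, ranged from 10.6 to 59.2 CPM in early WT and from 47.4 to 60.3 CPM in established WT mice, but its range in Fosl-2(Tg) mice was 2.32-fold early and 2.79-fold established. *Npas2* covered a 9.05-fold range in early Fosl-2(Tg) mice and a 2.48-fold range in the established ones. Whether the spread differed between cohorts was not tested.

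Deviations from the group mean were then compared between genes, over the 28 mice, in 65 pairs (45 pairs of clock genes, and each clock gene with *Bmal1* and with *Npas2*). Of the 45 pairs of clock genes, 10 correlated positively and 0 negatively after Benjamini-Hochberg adjustment of permutation p-values. Of the 20 pairs with *Bmal1* or *Npas2*, 7 were negative and 1, *Nr1d1* with *Npas2*, was positive. The share of correlated pairs among all genes was not computed, so that these counts were not shown to be particular to clock genes. *Per1* went with *Cry2* (r = 0.784, permutation p = 0.0001, adjusted p = 0.00162, Spearman's rho = 0.705, adjusted p = 0.00481), and r was 0.714 without the 2 mice farthest from the median. *Per3* went with *Tef* (r = 0.744, permutation p = 4e-05, adjusted p = 0.00162, rho = 0.743, adjusted p = 0.0026), and r was 0.791 without 2 mice. *Per2* went with *Cry1* (r = 0.694, permutation p = 0.00016, adjusted p = 0.00208, rho = 0.667, adjusted p = 0.00481), and r was 0.602 without 2 mice.

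*Nr1d2* ran opposite to both activators in the pooled mice. With *Npas2*, r was -0.74 (permutation p = 5e-05, adjusted p = 0.00162, rho = -0.697, adjusted p = 0.00481), and -0.712 without 2 mice. With *Bmal1*, r was -0.732 (permutation p = 8e-05, adjusted p = 0.00162, rho = -0.719, adjusted p = 0.00481), and -0.658 without 2 mice. *Tef* and *Npas2* had r = -0.647 (permutation p = 0.00065, adjusted p = 0.00469, rho = -0.648, adjusted p = 0.00585), and -0.573 without 2 mice. *Clock* was in none of the 18 pairs past the threshold, and *Nr1d1* and *Nr1d2*, which act alike as repressors, had r = -0.491 (permutation p = 0.0193, adjusted p = 0.0627, rho = -0.505, adjusted p = 0.0468), and -0.289 without 2 mice.

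The opposition of *Nr1d2* and *Npas2* passed the threshold within both early groups and within neither established group. Within early WT, r was -0.955 (exact permutation p = 0.00218, adjusted over 24 tests p = 0.0153, n = 7), and within early Fosl-2(Tg) mice -0.904 (exact permutation p = 0.000496, adjusted p = 0.0119, n = 8). In established WT mice it was 0.752 (exact permutation p = 0.0694, n = 6) and in established Fosl-2(Tg) mice -0.656 (exact permutation p = 0.11, n = 7). *Per1* and *Cry2* correlated positively in all 4 groups, with r of 0.677, 0.944, 0.384 and 0.843 in early WT, early Fosl-2(Tg), established WT and established Fosl-2(Tg) mice, as did *Per3* and *Tef* (0.736, 0.786, 0.881 and 0.645) and *Per2* and *Cry1* (0.72, 0.909, 0.527 and 0.471). Of these 12 values, 3 passed the adjusted threshold by exact permutation, those of *Per1* and *Cry2* in both Fosl-2(Tg) groups and of *Per2* and *Cry1* in early Fosl-2(Tg) mice. *Cry2* and *Per1* were also the members that followed the acute response list, in 72 relations with marker scores computed after the values had been seen. Over the 28 mice, r was 0.829 for *Cry2* (permutation p = 4e-05, adjusted p = 0.00288, rho = 0.745, adjusted p = 0.0108), and 0.763 without 2 mice. For *Per1* it was 0.695 (permutation p = 0.00069, adjusted p = 0.0248, rho = 0.552, adjusted p = 0.093, and 0.581 without 2 mice). *Per3* ran the other way without passing the threshold, with r = -0.386 (permutation p = 0.0491, adjusted p = 0.203, rho = -0.548, adjusted p = 0.093, and r = -0.603 without 2 mice).

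**Figure D4:**
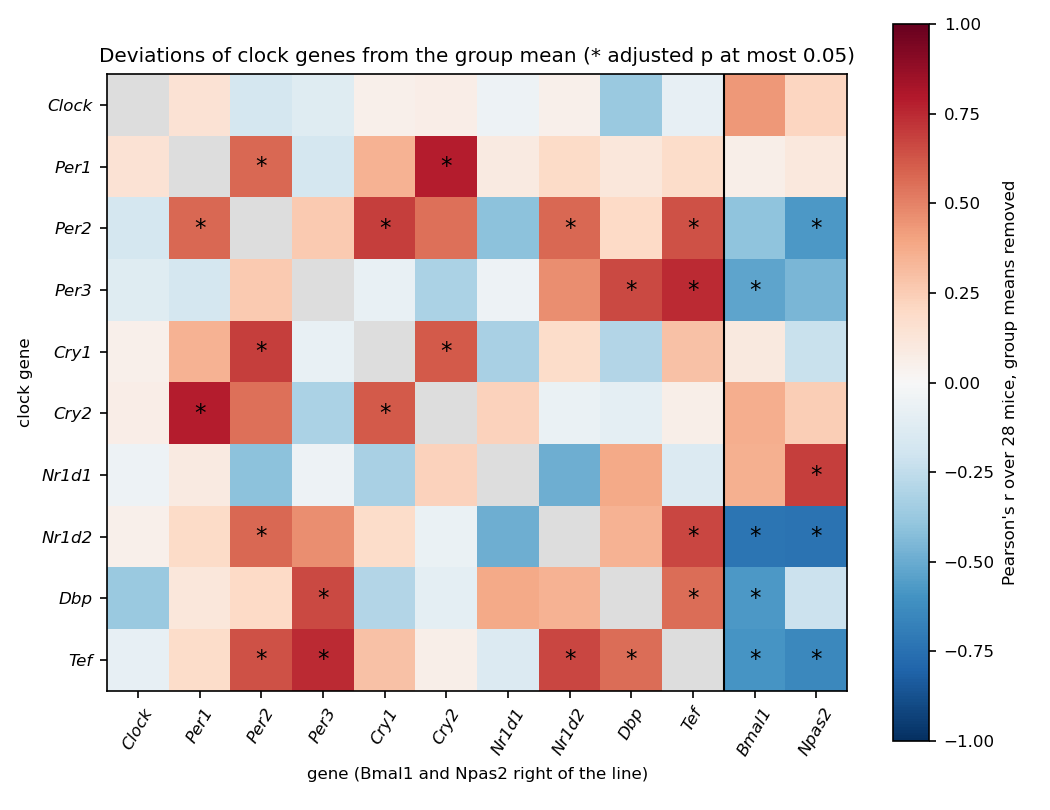
Pearson's r over 28 mice of log2 CPM with group means removed, for pairs of clock genes and, right of the line, with *Bmal1* and *Npas2* (red positive, blue negative, asterisks at an adjusted p of at most 0.05). The *Per*, *Cry*, *Dbp*, *Tef* and *Nr1d2* genes hold the 10 positive pairs of clock genes, and 7 of the 8 marked cells right of the line are negative.

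Some clock genes, *Bmal1* and *Npas2* followed the number in the library name in the early cohort. This order is not labelled as a collection time or a batch. How many of all genes did so was not computed, so that the relation was not shown to be particular to clock genes. In the early cohort, numbers 49 to 63 alternate between runs of WT and Fosl-2(Tg) mice, and in that order *Nr1d2* was 114.2, 113.7, 143.3, 114.0, 112.6, 136.9, 129.6, 145.0, 155.5, 140.1, 166.5, 161.4, 186.2, 176.9 and 174.0 CPM. *Npas2* in the same order was 42.9, 46.4, 22.1, 50.6, 43.7, 30.8, 34.5, 29.0, 18.7, 26.8, 9.77, 11.4, 11.5, 12.9 and 5.59 CPM. One gene therefore climbed as the other fell across mice of both genotypes. *Per2* was 17.6, 22.5, 42.5, 17.4, 12.9 and 19.9 CPM in the first 6 of these mice and 47.7 to 98.2 CPM in the other 9.

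Of 24 relations with the library number computed after the values had been seen, 4 were past an adjusted p of 0.05 by Spearman's rho, all in the early cohort (n = 15 mice), and by Pearson's r these and early *Per2* (r = 0.656, adjusted p = 0.0462, rho = 0.543, adjusted p = 0.133, and r = 0.605 without 2 mice). *Nr1d2* had rho = 0.864 (permutation p = 9e-05, adjusted p = 0.00128) with r = 0.892 (adjusted p = 0.00048), and r was 0.867 without the 2 outermost mice. *Nr1d1* had rho = -0.843 (permutation p = 0.00013, adjusted p = 0.00128) with r = -0.829 (adjusted p = 0.00088), and -0.727 without 2 mice. The paralogs thus ran in opposite directions. *Npas2* had rho = -0.843 (permutation p = 0.00016, adjusted p = 0.00128) with r = -0.871 (adjusted p = 0.00048), and -0.833 without 2 mice. *Bmal1* had rho = -0.696 (permutation p = 0.00552, adjusted p = 0.0331) with r = -0.652 (adjusted p = 0.0462), and -0.667 without 2 mice. In the established cohort, 0 of 12 genes passed (n = 13 mice). Library number as a linear covariate left 0 of the 10 clock genes called early by edgeR. In the established cohort 1 of the 10 was called with it, *Nr1d1* (log2 fold change -0.54, edgeR FDR = 0.0407), among 854 genes called in all. Established *Dbp* had a log2 fold change of -0.81 (edgeR FDR = 0.074) with it.

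**Figure D5:**
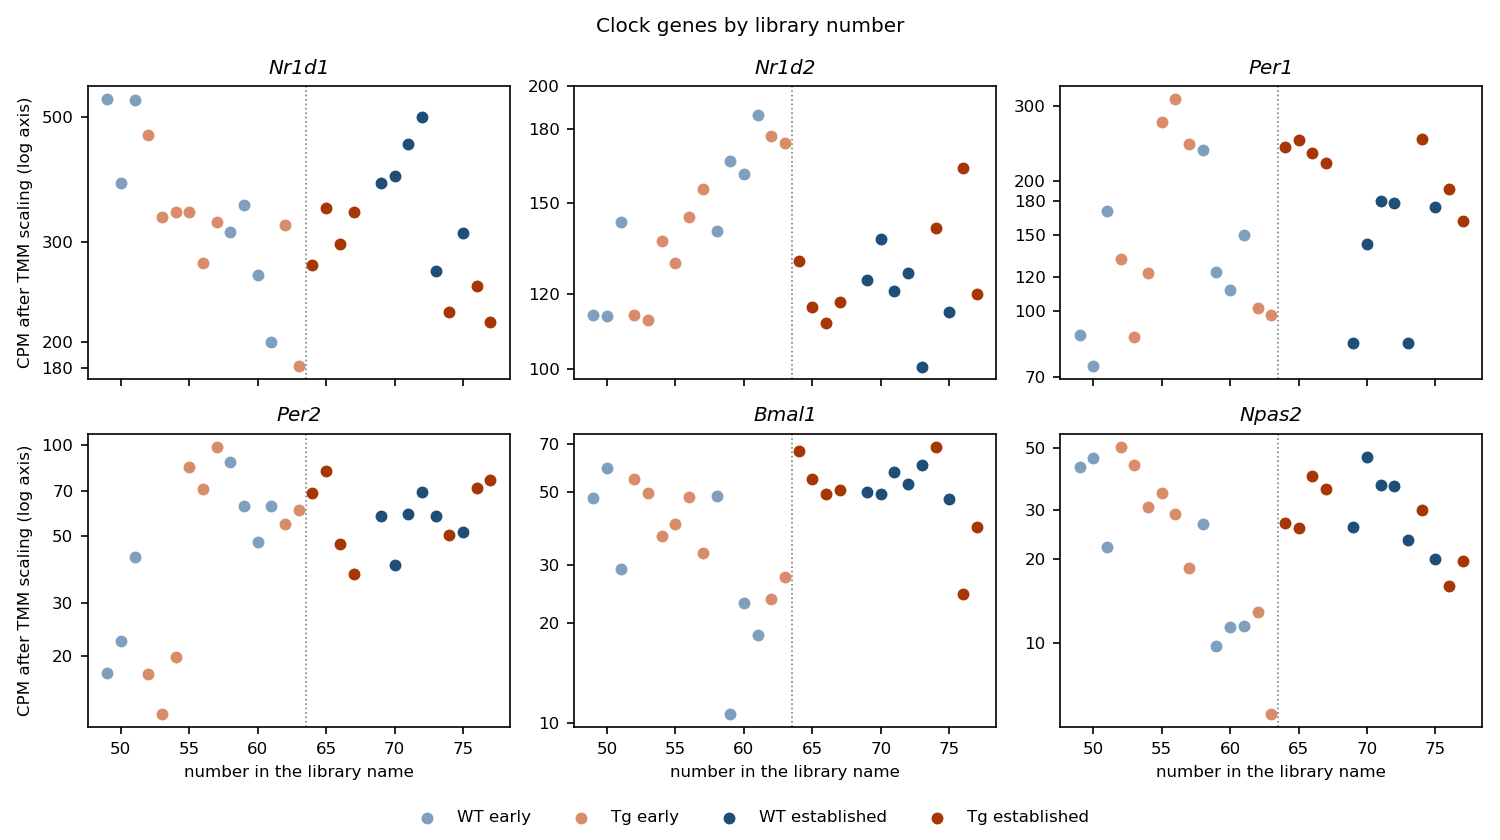
CPM after TMM scaling (log axis) of 6 genes against the number in the library name, coloured by group, with the cohorts either side of the dotted line. In the early cohort, *Nr1d2* climbs from about 114 to 174 CPM while *Nr1d1* and *Npas2* fall, across both genotypes, and the established mice show no such order.

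Finally, the genes whose deviations were most like those of 3 members were listed by Pearson's r with group means removed, over the 28 mice and among the 11416 genes above. Next to *Dbp* came *Sphk2* (0.943), *Bhlhe41* (0.818), *Gm43909* (0.797), *Il15ra* (0.738) and *Magi2* (0.724), where *Sphk2* overlaps the exons of *Dbp* and *Gm43909* those of *Bhlhe41*. Next to *Per1* came *Errfi1* (0.882), *Spsb1* (0.842), *Cblb* (0.816), the clock repressor *Ciart* (0.806) and the cyclic AMP responsive kinase *Sik1* (0.802). Next to *Clock*, which varied least, came *Cyria* (0.838), *Pik3c3* (0.835), *Fcho2* (0.814), *Fam124a* (0.813) and *Bbs4* (0.812), none of them on the lists of clock genes.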

How the data were processed

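Raw read counts per gene were deposited for the tail tendon fascicles of 28 mice. The authors depleted ribosomal RNA, mapped reads with STAR to GRCm39 (GENCODE release M26) and counted them with featureCounts, so that the deposited counts are not normalized. The 10 members and all other lists were chosen with earlier results of these data known. Of 25719 identifiers, 25505 were named with GENCODE release M39. Totals of 9645598 to 66894396 counts per library set the counting precision. Groups, sex and replicate numbers came from the labels, and nothing was left out.

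Counts were scaled by TMM in edgeR 4.0.16 (R 4.3.3) after filterByExpr (minimum count 10, minimum total 15). Genotypes were compared within each cohort by edgeR's quasi-likelihood test without covariates. The interaction and the stages were tested in 1 fit of the 4 groups. P-values were adjusted by Benjamini-Hochberg over all genes tested, and genes were called at an FDR of at most 0.05. Log2 CPM used a prior count of 2. Correlations used 100000 two-sided permutations of mice, within groups or, for library number, within a cohort (smallest possible p 1e-05) or exact permutation within a group.

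Named were all members, the called members of the regulator list and of the output list between genotypes, 7 further regulators in any case, and the 5 genes most like *Dbp*, *Per1* and *Clock*. Some called regulators are counted but not reported here by name. *Fkbp5* and *Zbtb16*, and the genes that overlap members, were named after their values were seen. Same-numbered early mice deviated together in each of 7 pairs (r from 0.129 to 0.363), and the replicate block was fitted only as an alternative. Mice of different numbers were not compared, and the replicate number rises with the library number within each group. A pairing was therefore not shown. No source says what the number shares. Alternatives were DESeq2 1.42.0, limma 3.58.1 voom with quality weights, RLE scaling, other filters, the replicate block, muscle score, library number or sex as covariates, females only, all libraries in 1 fit and each mouse left out. In simulated early libraries edgeR found 94.8% of the genes made to change (15016 genes in the test), and in simulated established libraries 92.3% (15720 genes in the test). Of the genes called there, 4.66% and 6.77% had not been changed, against 13.6% and 14.6% with DESeq2. The simulated counts were drawn from edgeR's own dispersion estimates, with mice independent and 200 genes changed. These shares of unchanged genes therefore hold for that setting and do not measure false calls in the deposited data. The changes put into these simulated libraries were larger than any genotype difference of the members. The recovered shares therefore do not measure the power for the members. Promoters were read from GRCm39 by position. Figures used matplotlib 3.10.9.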

Additional observations from a re-analysis of the deposited data

Results flagged for a closer look

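*Cry2* in early WT replicate 4 was 245.4 CPM, far from the nearest of the other 6 mice at 145.8 CPM, a gap of 0.639 of the range of the group. It was the 1 such value in 40 groups of 6 to 8 mice (10 genes in 4 groups), where chance gives about 1 in 20. The same mouse had the highest *Per1* (236.5 CPM), *Per2* (87.4 CPM) and *Cry1* (24.3 CPM) of its group. Its library number, 58, follows those of early Fosl-2(Tg) replicates 4, 5 and 6 (55, 56 and 57). *Cry2* was 189.5, 269.3 and 247.2 CPM in these replicates, and at most 145.8 CPM in every other early mouse. *Per1* was 275.5, 310.5 and 243.8 CPM in them, and at most 170.8 CPM in every other early mouse. High values thus ran over neighbouring library numbers and both genotypes. Their part in the early *Per1* and *Cry2* results was not tested.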

How the results depend on the processing

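The number of genes past the threshold moved by more than 1.5 times as follows. Early, it was 6 as reported, 23 by DESeq2, 10 by voom and 11 with the replicate block or with library number as covariate. Established, 1032 became 2146 by DESeq2, 1984 by voom, 1712 with the muscle score, 560 in females only and 1663 with all 28 libraries in 1 fit. The interaction count of 1195 became 1793 by DESeq2, 1951 by voom and 725 without the 2 established males. Between stages of WT mice, 935 became 1573 by DESeq2, 2145 by voom, 1439 with the muscle score and 5590 with library number, which nearly coincides with stage.

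With each mouse left out, the counts ran from 4 to 12 early (12 without WT replicate 4), from 361 to 1166 established, from 702 to 1876 for the interaction (1876 without early WT replicate 5) and from 419 to 1391 between stages of WT mice. The established count was at most 684 without WT replicates 1, 2, 4, 5 or 6 or Fosl-2(Tg) replicates 1, 2 or 3. The interaction count was lowest without early WT replicates 2 or 3, established Fosl-2(Tg) replicate 1 or established WT replicate 2, and the WT stage count without early WT replicates 5 or 6 or established WT replicates 1, 3, 4 or 5. Between stages of Fosl-2(Tg) mice it was 7685 as reported and 6886 to 7813.

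None of the early differences of the members passed under any alternative, and 4 changed sign without being called. *Per2* had a log2 fold change of -0.114 with the replicate block and -0.383 with the muscle score, *Cry1* -0.076 and *Cry2* -0.011 with the muscle score, and *Nr1d2* 0.064 by voom. With 1 mouse left out, the early difference ran from -0.091 to 0.306 for *Per2*, from -0.005 to 0.255 for *Cry1* and from -0.083 to 0.026 for *Nr1d2*, and the established one from -0.044 to 0.256 for *Cry1* and from -0.113 to 0.002 for *Tef*.

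Same-numbered established mice deviated together in 4 of 6 pairs above 0.1 (r from -0.223 to 0.688), again without mice of different numbers for comparison. With the replicate block the established count was 924, *Dbp* passed (log2 fold change -0.899, FDR = 0.0293 by edgeR) and *Tef* passed between stages of Fosl-2(Tg) mice. The block changed no other call among the members. The causes of these shifts were not tested. The number of correlated pairs, 18 of 65, moved by less than 1.5 times in all 4 other settings and all 28 fits with 1 mouse left out. The pooled SD of *Dbp* was 0.355 without established Fosl-2(Tg) replicate 5.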
